A study of Mus musculus with 12 samples.

Results

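The genes described are 8 genes known from plasmacytoid dendritic cells (Siglech, Ly6d, Ccr9, Tcf4, Spib, Irf8, Pld4 and Pacsin1), out of 56941 genes in a count table of intratumoural CD8+ T cells. They were chosen on the differences between asGM1-positive and asGM1-negative cells in these same 12 libraries, so their population differences are given as a description, with no test. All 8 passed the filter on low counts, which 18657 genes passed. asGM1 (asialo-GM1) is a glycolipid of the cell surface, and cells that carry it or lack it were sorted from Panc02 tumours, a mouse pancreatic cancer line, grown in wild type C57BL/6J mice. The groups were asGM1-positive cells under anti-PD-1, asGM1-negative cells under anti-PD-1, asGM1-positive cells under isotype control antibody and asGM1-negative cells under isotype control antibody, with 3 libraries each. Anti-PD-1 blocks an inhibitory receptor of T cells, and the isotype antibody is its control. Every sorted population was labelled DAPI- CD45.2+ CD8+, that is, living leukocytes with CD8 at the surface, and the labels name no CD3 or dendritic cell marker in the gate. Dose, time, age, sex and any pooling of animals are not given in the sources used here, nor whether libraries with different numbers came from separate mice, and the spread behind each p-value, which may be technical, is that among the libraries. Total counts were 58.1 M to 73.2 M per library (M, megacounts), which puts 3 counts, the limit that a count of 0 allows, at 0.0406 to 0.0524 counts per M counts of the TMM-scaled library (CPM).

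Plasmacytoid dendritic cells (pDCs) are a dendritic cell lineage that senses viral nucleic acids in endosomes through Toll-like receptors and answers with large amounts of type I interferon. Their identity depends on the E protein encoded by Tcf4, with Spib and Irf8 as further transcription factors, and the Id proteins hold E proteins back. Mouse pDCs are recognised at the surface by Siglec-H, and some of them display the CD8 alpha chain. In tumours pDCs have been linked mostly to tolerance.

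Promoters were read for every member with an entry, because the known pDC factors bind recognisable motifs, and are printed for 4 of those that differed between the populations. RefSeq promoter sequences (GRCm38.p6, 250 bases before to 50 after the start site) were found for 6 of the 8 genes and 7 start sites, with no entry used for Ly6d or Tcf4; this build is older than the mm39 build named in the submitters' processing notes, so these coordinates serve for the sequences alone. Both strands were searched for CANNTG, the E box to which E proteins bind, for its subsets CAGGTG (read as CACCTG on the other strand) and CAGCTG, for GAGGAA, an ETS core of the kind that the factor encoded by Spib binds, and for 2 composites, GGAA and GAAA joined over any 2 bases (ETS-IRF) and GAAA and GAAA joined over any 2 bases (interferon response type). Capitals mark every match on either strand. The sequences of 4 promoters, each on the strand of its gene, are those of Siglech at chr7:55767934-55768233 on the plus strand, Spib at chr7:44532022-44532321 on the minus strand, Ccr9 at chr9:123766961-123767260 on the plus strand and Pld4 at chr12:112760405-112760704 on the plus strand.
Siglech: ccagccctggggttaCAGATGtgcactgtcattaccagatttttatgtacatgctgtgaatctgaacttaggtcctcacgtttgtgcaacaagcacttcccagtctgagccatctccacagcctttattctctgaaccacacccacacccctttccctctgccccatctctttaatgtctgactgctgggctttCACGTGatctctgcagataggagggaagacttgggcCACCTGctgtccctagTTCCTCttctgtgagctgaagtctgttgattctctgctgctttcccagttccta
Spib: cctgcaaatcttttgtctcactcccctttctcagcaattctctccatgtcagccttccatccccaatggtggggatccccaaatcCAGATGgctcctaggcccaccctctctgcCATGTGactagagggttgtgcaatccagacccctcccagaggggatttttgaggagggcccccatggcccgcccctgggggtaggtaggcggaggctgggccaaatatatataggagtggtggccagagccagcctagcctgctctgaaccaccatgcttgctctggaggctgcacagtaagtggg
Ccr9: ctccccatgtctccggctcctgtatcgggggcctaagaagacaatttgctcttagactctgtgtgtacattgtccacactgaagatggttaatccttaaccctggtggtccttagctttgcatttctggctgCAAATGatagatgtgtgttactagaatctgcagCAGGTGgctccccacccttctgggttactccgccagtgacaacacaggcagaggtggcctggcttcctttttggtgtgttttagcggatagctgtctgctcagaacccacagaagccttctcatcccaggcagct
Pld4: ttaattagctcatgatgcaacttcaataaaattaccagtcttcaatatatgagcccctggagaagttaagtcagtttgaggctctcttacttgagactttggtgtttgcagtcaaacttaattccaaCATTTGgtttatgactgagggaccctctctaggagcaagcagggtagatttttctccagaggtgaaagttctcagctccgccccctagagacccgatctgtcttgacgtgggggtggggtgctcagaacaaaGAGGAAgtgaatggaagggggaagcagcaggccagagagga

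An E box stood in the windows of 5 of the 6 genes, in 5 of 7 promoters, and in 72.3% of all 32851 promoters of 300 bases. CAGGTG or CACCTG was present in 3 of the 7 (Siglech, Ccr9 and the downstream Irf8 start site), against 20.2% of all promoters, and CAGCTG in 0 of 7, against 16.3%. The ETS core was found at Siglech and Pld4, 2 of the 7, against 28.3% of all promoters. Neither composite was in any of the 7 windows, and they were in 2.72% (ETS-IRF) and 3.44% (interferon response type) of all promoters. The Pacsin1 window and the upstream Irf8 window held no match to any of these motifs.

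The surface receptors were near 0 in asGM1-positive cells. Siglech encodes Siglec-H, a receptor of the Siglec lectin family that pDCs use for uptake and that signals through an adaptor. Under anti-PD-1 it had 0.0719, 0.489 and 0 CPM in asGM1-positive libraries, against 31.5, 34.8 and 25.1 CPM in asGM1-negative libraries. Under isotype it had 0, 0.236 and 0 CPM in asGM1-positive libraries, against 71.3, 46.2 and 58.2 CPM in asGM1-negative libraries. The groups lay far apart, and 3 of the 6 asGM1-positive libraries held no read of the gene. The mean was 163-fold lower in asGM1-positive cells under anti-PD-1, from 33 and 5560 counts (95% exact conditional interval 128 to 262), and 745-fold lower under isotype, from 17 and 11603 counts (422 to 1160). These intervals, and those of Ly6d and Ccr9 below, come from summed counts, while the folds are of group means. They cover counting error only and leave out the spread among libraries. Replicate libraries differed by a chi-square of 41.4 to 115 per degree of freedom over genes with reads, far above counting error alone. In sorted bulk RNA, fewer cells of a type and less RNA per cell cannot be told apart.

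Ly6d, a small GPI-anchored surface protein of lymphoid progenitors and their descendants, followed the same order. Under anti-PD-1, asGM1-positive libraries had 0.0863, 0 and 0 CPM, against 5.38, 11.4 and 4.15 CPM in asGM1-negative libraries. Under isotype, asGM1-positive libraries had 0, 0.180 and 0.382 CPM, against 42.7, 17.8 and 25.5 CPM in asGM1-negative libraries. The highest of the 4 groups was the isotype asGM1-negative one, and no library of it overlapped with another group. Only 6 counts lay behind the anti-PD-1 asGM1-positive value, so the 242-fold lower mean there carries an interval of 103 to 613, and the 153-fold lower mean under isotype one of 107 to 209.

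Ccr9, the receptor for the gut and thymus chemokine CCL25, which also marks mature pDCs, was low in the same libraries. It had 0.129, 0.751 and 0.345 CPM in anti-PD-1 asGM1-positive libraries, against 12.3, 18.2 and 11.9 CPM in anti-PD-1 asGM1-negative libraries. It had 0, 0.819 and 0 CPM in isotype asGM1-positive libraries, against 26.5, 17.7 and 22.5 CPM in isotype asGM1-negative libraries. All 59 counts of the isotype asGM1-positive group fell in replicate 2, the one library of that group that also held Siglech reads. The mean was 34.5-fold lower in asGM1-positive cells under anti-PD-1 (28.8 to 46.0) and 81.6-fold lower under isotype (57.3 to 97.5). In the asGM1-negative cells the 2 treatments overlapped by a single library, the anti-PD-1 replicate 2 at 18.2 CPM against the lowest isotype value of 17.7 CPM.

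**Figure D1:**
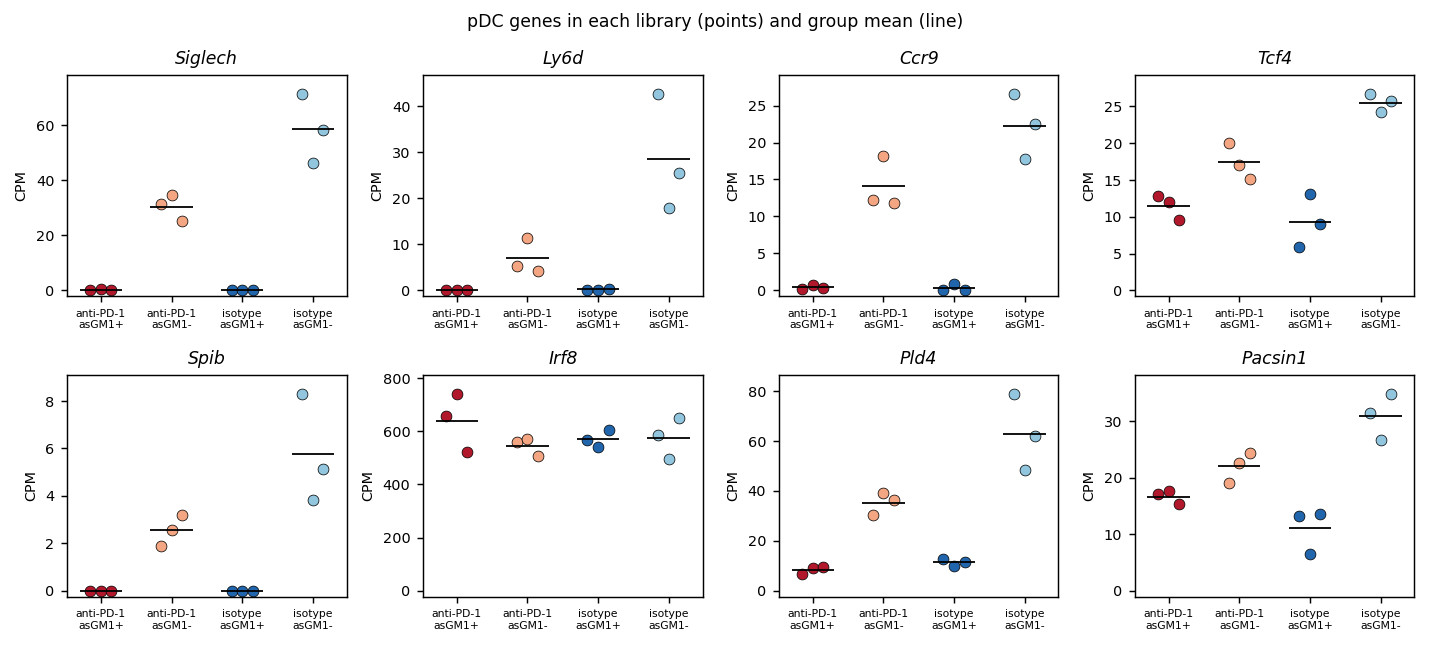
CPM of each of the 8 genes (vertical axes, each from 0) in the 12 libraries by group, with points for libraries and lines for group means. Siglech, Ly6d, Ccr9 and Spib lie at or near 0 in all 6 asGM1-positive libraries, Tcf4, Pld4 and Pacsin1 are lower but present there, and Irf8 is at 495 to 739 CPM throughout.

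The transcription factors behaved in 3 different ways. Spib, an ETS factor needed for full pDC development and also used by B cells, was listed at 0 in all 6 asGM1-positive libraries. It had 1.90, 2.57 and 3.20 CPM in anti-PD-1 asGM1-negative libraries and 8.28, 3.84 and 5.14 CPM in isotype asGM1-negative libraries. Against the limit of 3 counts per library, it was at least 55.3-fold lower in asGM1-positive cells under anti-PD-1 and at least 124-fold lower under isotype. Tcf4, the E protein E2-2 that sets pDC fate, was lower in asGM1-positive cells but far from absent, with 12.8, 12.1 and 9.63 CPM under anti-PD-1, against 20.0, 17.1 and 15.2 CPM in asGM1-negative cells. Under isotype it had 5.88, 13.1 and 8.96 CPM in asGM1-positive libraries, against 26.7, 24.2 and 25.7 CPM in asGM1-negative libraries. The mean in asGM1-positive cells was 66.0% of that in asGM1-negative cells under anti-PD-1 and 36.5% under isotype, and groups did not overlap in either treatment.

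Irf8, an interferon regulatory factor of dendritic cells that activated CD8+ T cells also express, did not separate the populations. It had 658, 739 and 520 CPM in asGM1-positive and 561, 570 and 508 CPM in asGM1-negative libraries under anti-PD-1. Under isotype it had 567, 542 and 603 CPM in asGM1-positive libraries, against 585, 495 and 648 CPM in asGM1-negative libraries. The groups overlapped in both treatments, and the fitted difference was 0.23 ± 0.13 under anti-PD-1 and -0.01 ± 0.13 under isotype (log2 fold change, asGM1-positive over asGM1-negative, ± SE, n = 3 each).

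Pld4, a 5′ exonuclease of the endosome and lysosome that trims DNA and RNA ligands of Toll-like receptors, was intermediate. Under anti-PD-1 it had 6.75, 9.18 and 9.30 CPM in asGM1-positive libraries, against 30.4, 39.1 and 36.3 CPM in asGM1-negative libraries. Under isotype it had 12.7, 9.91 and 11.5 CPM in asGM1-positive libraries, against 78.7, 48.2 and 61.9 CPM in asGM1-negative libraries. The means in asGM1-positive cells stood at 23.9% of those in asGM1-negative cells under anti-PD-1 and at 18.1% under isotype. The order of the 4 groups, from low to high, was anti-PD-1 asGM1-positive, isotype asGM1-positive, anti-PD-1 asGM1-negative and isotype asGM1-negative, with no overlap between neighbours.

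Pacsin1, a membrane-bending adaptor best known from neurons and needed in pDCs for interferon output downstream of Toll-like receptor 9, had a small difference under anti-PD-1 and a larger one under isotype. It had 17.0, 17.5 and 15.4 CPM in anti-PD-1 asGM1-positive libraries, against 19.1, 22.5 and 24.4 CPM in anti-PD-1 asGM1-negative libraries. It had 13.2, 6.54 and 13.6 CPM in isotype asGM1-positive libraries, against 31.5, 26.6 and 34.7 CPM in isotype asGM1-negative libraries. Neighbouring groups did not overlap, but under anti-PD-1 the gap between the populations was smaller than the range within the asGM1-negative group. The mean in asGM1-positive cells was 75.6% of that in asGM1-negative cells under anti-PD-1 and 36.0% under isotype.

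In both treatments, 7 of the 8 genes were lower in every asGM1-positive library than in any asGM1-negative library of the same treatment. Of all genes tested, 9.51% lay apart in that direction under anti-PD-1 and 8.41% under isotype. Because the genes were chosen on these contrasts, nothing is read from that count.

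The effect of anti-PD-1 was then compared within each population. In asGM1-negative cells the pDC genes were mostly lower under anti-PD-1, but a single one, Pld4, passed the test across all genes. Pld4 averaged 35.3 ± 4.45 CPM under anti-PD-1 and 62.9 ± 15.3 CPM under isotype (SD, n = 3 each; log2 fold change -0.84 ± 0.19 SE, edgeR quasi-likelihood adjusted p = 0.0182). Of all genes tested, 4.55% fell and 4.21% rose in this comparison at adjusted p under 0.05, against which a count of 1 in 8 genes is to be read. The libraries of this test also entered the population comparisons on which the genes were chosen.

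The remaining 7 did not pass. Ly6d averaged 6.97 ± 3.87 CPM under anti-PD-1 and 28.7 ± 12.7 CPM under isotype (log2 fold change -2.04 ± 0.67, edgeR adjusted p = 0.0847), and Spib 2.56 ± 0.649 CPM under anti-PD-1 and 5.76 ± 2.28 CPM under isotype (-1.17 ± 0.37, adjusted p = 0.0992). Siglech averaged 30.5 ± 4.97 CPM under anti-PD-1 and 58.6 ± 12.5 CPM under isotype (-0.94 ± 0.60, edgeR adjusted p = 0.395). The log2 fold changes of Tcf4, Pacsin1, Ccr9 and Irf8 were -0.55 ± 0.24, -0.49 ± 0.23, -0.66 ± 0.84 and -0.08 ± 0.13 (edgeR adjusted p = 0.188, 0.232, 0.712 and 0.791). For 6 genes, all but Ccr9 and Irf8, every anti-PD-1 library was below every isotype library, which held in that direction for 15.8% of all genes tested.

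The Pld4 call rested on the full set of libraries. Among asGM1-negative libraries, leaving out anti-PD-1 replicate 1, anti-PD-1 replicate 3 or isotype replicate 1 ended it (edgeR adjusted p = 0.0838, 0.0614 and 0.0805), as did leaving out both anti-PD-1 replicate 2 libraries (0.0521). Its adjusted p ranged from 0.000407 to 0.0838 over all alternatives. Heat shock RNA differed with treatment as well: Hspa1a was at 22.5 to 151 CPM in anti-PD-1 libraries, with the 2 replicate 2 libraries at 146 and 151 CPM and the other 4 at 22.5 to 32.6 CPM, and at 188 to 440 CPM in isotype libraries. Its part in the treatment differences was not tested. Fitted on the 6 asGM1-negative libraries alone, 4 of the 8 genes passed: Siglech, Ly6d, Tcf4 and Pld4 (edgeR adjusted p of the first 3 = 0.0181, 0.0303 and 0.0454). In that fit 4.55% of all genes fell.

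**Figure D2:**
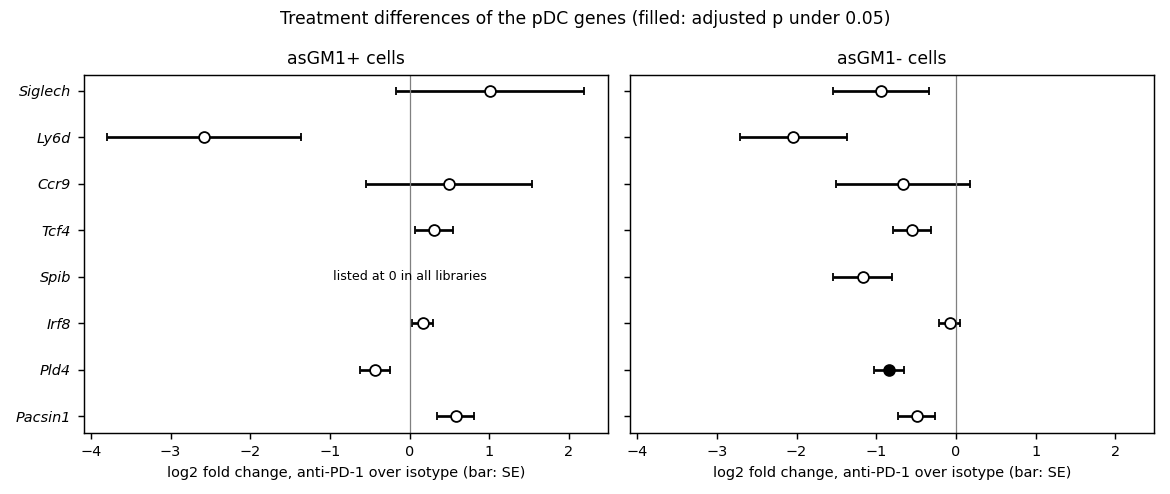
Log2 fold change of each gene under anti-PD-1 over isotype (horizontal axis, bars are standard errors, n = 3 libraries a group) in asGM1-positive cells (left) and asGM1-negative cells (right). Pld4 in asGM1-negative cells, at -0.84, is the filled point, and Spib has no value in asGM1-positive cells, where it is listed at 0 in all 6 libraries.

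In asGM1-positive cells no pDC gene passed, against 3.04% of all genes that fell and 3.78% that rose at adjusted p under 0.05. At unadjusted p under 0.05 stood Pacsin1 and Pld4. DESeq2 called 0 of the 8, where it called 5.75% of all genes as lower and 6.41% as higher. Pacsin1 averaged 16.6 ± 1.14 CPM under anti-PD-1 and 11.1 ± 3.98 CPM under isotype (log2 fold change 0.58 ± 0.23, edgeR adjusted p = 0.173), with groups that did not overlap, as for 11.9% of all genes in the higher direction. Pld4 averaged 8.41 ± 1.44 CPM under anti-PD-1 and 11.4 ± 1.39 CPM under isotype (-0.44 ± 0.19, adjusted p = 0.212), again with no overlap, as for 12.2% of all genes in the lower direction. Siglech, Ly6d and Ccr9 were under 1 CPM in every library of both treatments and gave wide fitted differences of 1.01 ± 1.18, -2.58 ± 1.21 and 0.49 ± 1.05. Tcf4 and Irf8 had log2 fold changes of 0.30 ± 0.24 and 0.16 ± 0.13 (edgeR adjusted p = 0.533 and 0.546). Ccr9 passed, as higher under anti-PD-1, once isotype asGM1-positive replicate 2 was left out (adjusted p = 0.0157), and the other 2 isotype libraries held no read of it.

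Whether the response to anti-PD-1 differed between the populations was tested as an interaction. No gene of the table passed by edgeR (0% called, with 1341 at unadjusted p under 0.05), and DESeq2 called 136 genes, none of them among the 8. The smallest p among the 8 was that of Pacsin1, whose log2 fold change under anti-PD-1 was 1.07 ± 0.33 greater in asGM1-positive than in asGM1-negative cells (edgeR adjusted p = 0.491). Tcf4 came next, at 0.85 ± 0.34 (edgeR adjusted p = 0.619). For both, the value was above isotype in asGM1-positive cells and below it in asGM1-negative cells, and neither difference passed.

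The proportions among the pDC genes inside each asGM1-negative library were compared by dividing each gene's CPM by that of Siglech. CPM is not scaled for transcript length, so the size of a ratio says nothing of relative transcript number, while its spread over libraries can be read. Siglech itself varied 2.85-fold over the 6 libraries. Ccr9 kept the narrowest ratio, at 0.389, 0.522 and 0.473 under anti-PD-1, against 0.372, 0.383 and 0.387 under isotype, a 1.40-fold range. Pld4 had ratios of 0.963, 1.12 and 1.45 under anti-PD-1, against 1.10, 1.04 and 1.06 under isotype, a 1.51-fold range. Spib ranged 2.12-fold, with 0.0602, 0.0738 and 0.128 under anti-PD-1, against 0.116, 0.0832 and 0.0884 under isotype. Ly6d had ratios of 0.171, 0.327 and 0.165 under anti-PD-1, against 0.598, 0.385 and 0.438 under isotype, a 3.62-fold range. The treatments did not overlap for Ly6d, which was lower under anti-PD-1, nor by a narrow margin for Ccr9, which was higher. Pacsin1 was also higher without overlap, at 0.606, 0.647 and 0.974 under anti-PD-1, against 0.442, 0.575 and 0.597 under isotype. So was Irf8, at 16.4 to 20.3 under anti-PD-1, against 8.21 to 11.1 under isotype, and Tcf4 overlapped. Tcf4, Pacsin1 and Irf8 were also present in asGM1-positive libraries. Ratios were also taken after subtracting both genes' CPM in the same-numbered asGM1-positive library of that treatment. Pacsin1 then overlapped, at 0.0660, 0.145 and 0.361 under anti-PD-1, against 0.256, 0.436 and 0.363 under isotype. Tcf4 lay lower without overlap, at 0.229, 0.145 and 0.222, against 0.292, 0.241 and 0.288. Ccr9 overlapped, Ly6d stayed lower without overlap, and Irf8 ranged from -4.91 to 0.779. The share of all genes that lie apart in such a ratio was not computed. These ratios share Siglech as denominator and are a description.

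**Figure D3:**
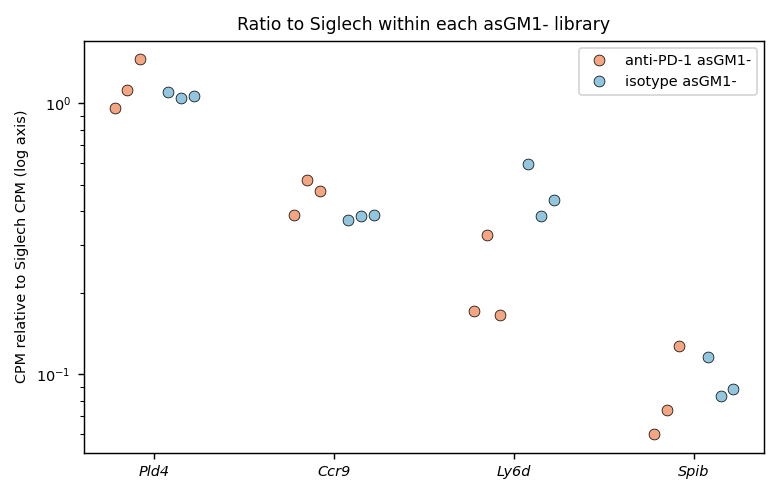
CPM of 4 genes divided by the CPM of Siglech in the same asGM1-negative library (log axis), with anti-PD-1 libraries left of isotype libraries. Ly6d is the gene of the 4 whose anti-PD-1 ratios, 0.165 to 0.327, all lie under its isotype ratios, 0.385 to 0.598.

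Other genes known from pDCs were counted from lists that leave out the 8. Of 25 surface and secretory genes, 24 could be tested, and in asGM1-positive cells 12 fell and 0 rose under anti-PD-1, and 13 fell and 0 rose under isotype. Of all genes tested, 0.654% fell and 0.949% rose under anti-PD-1, and 0.938% fell and 0.364% rose under isotype. The median fitted log2 fold change of the 24 was -2.57 under anti-PD-1, against -0.01 for all genes, and -4.02 under isotype, against -0.00 for all genes. With group means under 3 counts per library set to that limit, the medians were -2.44 under anti-PD-1 and -3.62 under isotype. All 12 genes that fell under anti-PD-1 also fell under isotype (12 of 13 there). The comparisons share no library, but they come from 1 fit of all 12 libraries with a common filter and a shared estimate of the spread. The list itself was drawn up with results of these data known. Of the genes that fell, 6 under anti-PD-1 and 4 under isotype had no read in any asGM1-positive library of that treatment, so they reached the test only through the asGM1-negative side. Fitted on the compared libraries alone, 10 of the list fell under anti-PD-1, where 1.01% of all genes did. In the same kind of fit 6 fell under isotype, where 0.372% of all genes did.

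The smallest p-values of that list belonged to Kmo, an enzyme of tryptophan breakdown, Smim5, a small membrane protein, Cd300c, a receptor of the CD300 family, Lair1, an inhibitory receptor for collagen, and Ctsl, the lysosomal protease cathepsin L. Kmo had 0.964, 0.925 and 0.835 CPM in asGM1-positive libraries under anti-PD-1, against 5.40, 6.36 and 5.11 CPM in asGM1-negative libraries (log2 fold change -2.63, edgeR adjusted p = 0.00482). Under isotype Kmo had 1.34, 0.736 and 0.565 CPM in asGM1-positive libraries, against 11.7, 6.32 and 10.5 CPM in asGM1-negative libraries (-3.44, edgeR adjusted p = 0.00112). Smim5 had log2 fold changes of -5.44 under anti-PD-1 and -5.07 under isotype (edgeR adjusted p = 0.00205 and 0.00112). These values did not overlap between the populations. Cd300c was listed at 0 in all 6 asGM1-positive libraries and was at 1.08 to 6.06 CPM in the asGM1-negative ones (edgeR adjusted p = 0.00594 under anti-PD-1 and 0.00354 under isotype). It had passed the filter only through the asGM1-negative side. Lair1 fell by 1.55 under isotype (edgeR adjusted p = 0.00244), and Ctsl by 2.52 under anti-PD-1 (0.00903) and by 2.43 under isotype (0.00880).

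Not every pDC gene took part. Bst2, the interferon-induced surface protein tetherin, had a log2 fold change of -0.33 under anti-PD-1 and -0.17 under isotype (edgeR adjusted p = 0.808 and 0.892). Ly6c2 had 0.14 and 0.04 (0.944 and 0.979). Both are also made by activated T cells. Without both anti-PD-1 replicate 2 libraries, 0.0666% of all genes fell under anti-PD-1, 13 in all, and 2 of the 24 did (Smim5 and Cd300c; Kmo had adjusted p = 0.0768 and Ctsl 0.110). Without 1 library at a time, 6 to 13 fell in either treatment. With same-numbered libraries of a treatment as pairs, 2.13% of all genes fell and 2.85% rose under anti-PD-1, and 2.12% fell and 1.92% rose under isotype. In that paired fit 11 of the 24 fell and 0 rose under anti-PD-1, where Sh3bgr and Lair1 no longer passed and Paqr5 did (edgeR adjusted p = 0.0372). Under isotype 17 fell and 1 rose: Sh3bgr no longer passed, Atp1b1, Upb1, Tspan13, Ptprs and Plac8 were added to those that fell, and P2ry14 rose (log2 fold change 0.61).

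**Figure D4:**
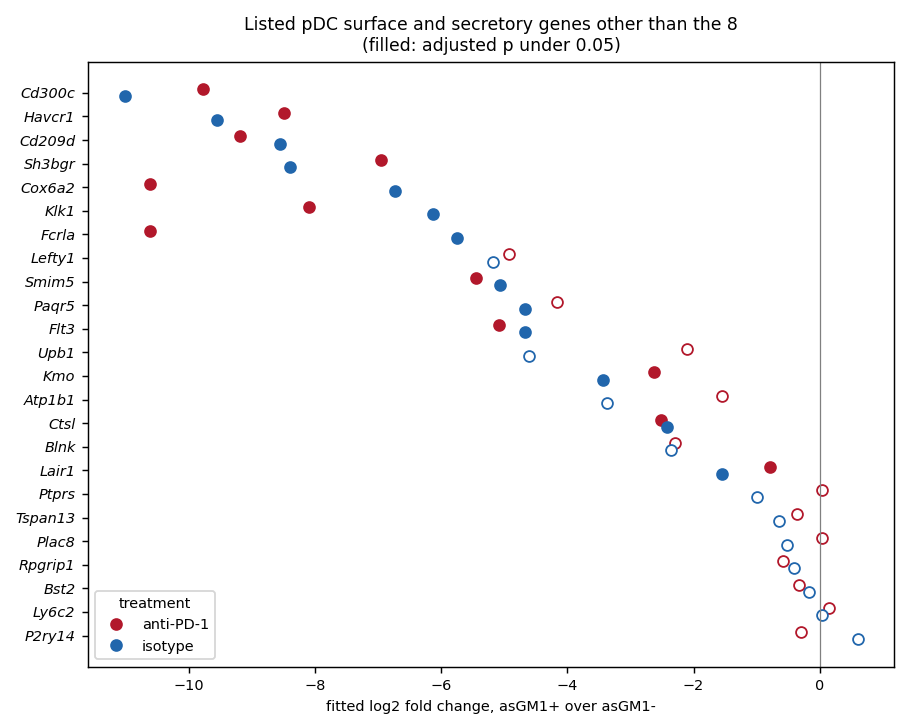
Fitted log2 fold change of 24 listed pDC surface and secretory genes (rows) in asGM1-positive over asGM1-negative cells under anti-PD-1 and isotype, filled where edgeR's adjusted p was under 0.05. Values past about -6 belong to genes with almost no read in asGM1-positive cells, and their size depends on the fit's prior count.

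A further list held 15 transcription factors and cofactors that act for or against the pDC lineage or, as Zbtb46, belong to conventional dendritic cells. In asGM1-positive cells 3 of the 15 fell under anti-PD-1 and 4 under isotype, and 0 rose. Id3 and Bcl11a fell in both. Id3, whose product binds E proteins and blocks them, had 0.115, 0.192 and 0.302 CPM in asGM1-positive libraries under anti-PD-1, against 0.874, 1.82 and 1.55 CPM in asGM1-negative libraries (log2 fold change -2.79, edgeR adjusted p = 0.00610). Under isotype, Id3 had 1.50, 1.64 and 1.86 CPM in asGM1-positive libraries, against 8.44, 6.42 and 9.30 CPM in asGM1-negative libraries (-2.27, edgeR adjusted p = 0.00880). The direction of Id3 is that of the pDC genes, although its product opposes the E protein that Tcf4 encodes. Bcl11a, a zinc finger factor needed for pDC development, had 0, 0 and 0 CPM in asGM1-positive libraries under anti-PD-1, against 1.48, 1.94 and 2.03 CPM in asGM1-negative libraries (edgeR adjusted p = 0.0148, where it had passed the filter only through the asGM1-negative side), and 0, 0.180 and 0 CPM under isotype, against 4.53, 2.36 and 3.61 CPM (0.0268).

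The remaining lineage calls were made in 1 treatment each. Cbfa2t3, a corepressor that holds down Id2 in pDCs, fell under anti-PD-1 (log2 fold change -3.76, edgeR adjusted p = 0.0342). Runx2, a Runt factor used by pDCs and T cells, and Zbtb46, the factor of conventional dendritic cells, fell under isotype (-0.62 and -1.32, edgeR adjusted p = 0.0306 and 0.0396). Tcf3 and Tcf12, which encode the other E proteins, and Id2 did not pass in either treatment (adjusted p from 0.142 to 0.974). In the paired fit 3 fell and 0 rose under anti-PD-1, and 6 fell and 1 rose under isotype, where Cbfa2t3 and Ikzf1 also fell (edgeR adjusted p = 0.0438 and 0.0316) and Spi1 rose (0.0446). Calls of this list were fragile. Zbtb46 under isotype was lost in 10 of the 12 fits that left out 1 library (adjusted p up to 0.140), Cbfa2t3 in 8 (up to 0.149), Bcl11a in 5 under isotype (up to 0.0941) and 3 under anti-PD-1 (up to 0.0563), and Runx2 in 4 (up to 0.104). Id3 kept its call in all 12 in both treatments, and without both anti-PD-1 replicate 2 libraries had adjusted p = 0.0940 under anti-PD-1, where 0 of the 15 then fell.

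Genes of endosomal sensing and type I interferon did not pass the test between the populations. Of 21 listed, 12 could be tested, and by edgeR 0 passed in either direction in either treatment. At unadjusted p under 0.05 stood Tlr7, Irf5, Unc93b1 and Tyrobp under anti-PD-1 and Tlr7, Myd88, Tyrobp and Pld3 under isotype, and DESeq2 called 1 gene as lower in each treatment. Ifna1, Ifna2, Ifna4 and Ifna5 had no read in any library, which allows up to 0.0524 CPM in each. Tlr9, the sensor of DNA that pDCs rely on, had 0.111, 0.0990 and 0.149 CPM in the isotype asGM1-negative libraries and no read in the other 9. Tlr7, the sensor of single-stranded RNA, had 1.38, 0.943 and 0.475 CPM in asGM1-positive libraries under anti-PD-1, against 4.40, 2.74 and 1.64 CPM in asGM1-negative libraries (log2 fold change -1.65, edgeR adjusted p = 0.148). Under isotype it had 3.23, 1.30 and 1.48 CPM in asGM1-positive libraries, against 7.64, 4.55 and 5.43 CPM in asGM1-negative libraries (-1.55, edgeR adjusted p = 0.181). In the paired fit, Tlr7 passed in both (edgeR adjusted p = 0.00590 under anti-PD-1 and 0.00861 under isotype), as did Irf7 under anti-PD-1 (0.0233). Irf7, the master factor of interferon genes, was at 201 to 217 CPM in asGM1-positive and 269 to 294 CPM in asGM1-negative libraries under anti-PD-1.

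Of 12 genes that guide pDCs through tissues (receptors, and the ligand Ccl25), 2 fell under anti-PD-1 and 4 under isotype, and 0 rose. The receptors are also used by T cells. Under isotype Ccr7, the lymph node chemokine receptor, fell by 2.42 on the log2 scale (edgeR adjusted p = 0.00384), Itgb7, an integrin chain for gut homing, by 1.63 (0.0194) and Cxcr4, the receptor of a bone marrow chemokine, by 1.26 (0.0387). Itgae, the integrin CD103 of resident T cells, fell by 3.16 under anti-PD-1 (edgeR adjusted p = 0.00205), and under isotype it had -1.10 (0.0669) and passed in the paired fit (0.0407). Ccr7 had a log2 fold change of -1.32 under anti-PD-1 (adjusted p = 0.0510), and passed in the paired fit (0.00503), in which 5 of the 12 fell under anti-PD-1 and 6 under isotype. Ccl25, the ligand of the receptor that Ccr9 encodes, was at 3.12 to 6.50 CPM in all 12 libraries and did not pass (edgeR adjusted p = 0.922 under anti-PD-1 and 0.834 under isotype). Leaving out 1 library ended the Itgb7 call for each of the 6 isotype libraries (up to 0.0777) and the Cxcr4 call in 10 of 12 fits (up to 0.126).

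Relatives of the 8 genes mostly did not pass the test. Of 41 listed paralogs, 36 could be tested, and in asGM1-positive cells 0 passed under anti-PD-1 and 2 fell under isotype, namely Ccr7 and Siglecf (log2 fold change -1.28, edgeR adjusted p = 0.0441, lost in 8 of the 12 fits without 1 library, up to 0.128). Pld3, the closest relative of Pld4 and a fellow endosomal exonuclease, was at 742 to 871 CPM in asGM1-positive libraries under anti-PD-1, against 785 to 880 CPM in asGM1-negative libraries (-0.05, edgeR adjusted p = 0.934), and had 0.20 under isotype (0.345). Pacsin2, the widely expressed relative of Pacsin1, had 0.11 under anti-PD-1 and 0.50 under isotype (edgeR adjusted p = 0.909 and 0.137). Spi1, the ETS factor PU.1 and a relative of the product of Spib, leaned the other way, with 4.68, 3.30 and 6.46 CPM in asGM1-positive libraries under anti-PD-1, against 1.73, 2.31 and 3.07 CPM in asGM1-negative libraries (1.02, edgeR adjusted p = 0.148). In the paired fit 6 paralogs fell under anti-PD-1, among them Ly6e (edgeR adjusted p = 0.00593) and Irf9 (0.0296), and under isotype 4 fell and 2 rose, namely Spi1 (0.0446) and Pacsin2 (0.0474).

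The response of the listed genes to anti-PD-1 had no single direction. In asGM1-negative cells, of 63 genes tested over the 4 pDC lists, 6 fell and 6 rose, against 4.55% and 4.21% of all genes. The 6 that fell were Id3 (log2 fold change -2.51, edgeR adjusted p = 0.00150), Itgae (-1.90, 0.00150), Batf3 (-1.62, 0.00884), Zbtb46 (-1.57, 0.00513), P2ry14, a receptor for UDP-sugars (-1.32, 0.00359) and Lair1 (-0.91, 0.00768). The 6 that rose were Plac8 (1.49, 0.00513), the integrin chain Itga4 (1.04, 0.00535), Zeb2 (0.99, 0.0200), Ccr2 (0.96, 0.0447), S1pr4 (0.69, 0.0490) and Runx2 (0.46, 0.0372). Of these, Ccr2, S1pr4 and Runx2 lost their calls in 7 to 9 of the 12 fits without 1 library and without both anti-PD-1 replicate 2 libraries, and Zeb2 in 3. Among the paralogs Siglece fell (-2.56, 0.0218), and Ccr1 (1.84, 0.000272), Ccr2 and Irf9 (0.33, 0.0384) rose, and the Siglece and Irf9 calls were lost in 3 and 8 of those 12 fits.

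In asGM1-positive cells 6 of the 63 fell and 7 rose under anti-PD-1, against 3.04% and 3.78% of all genes. Itgae (log2 fold change -3.97, edgeR adjusted p = 2.53e-05), Id3 (-3.02, 0.000655), P2ry14 (-2.22, 0.000141), Batf3 (-1.41, 0.0186), Zbtb46 (-1.36, 0.0130) and Rpgrip1 (-1.04, 0.0458) fell. Plac8 (2.06, 0.000830), Itga4 (1.78, 0.000196), Itgb7 (1.57, 0.00733), Zeb2 (1.28, 0.00639), Ptprs, a receptor phosphatase found on pDCs (1.21, 0.00698), Runx2 (0.83, 0.00195) and Irf4 (0.65, 0.0396) rose. Siglech and Spib were at or near 0 in these libraries, and which cells the changes came from was not tested. Among the paralogs Siglece (-3.02, 0.0120), Ly6e (-0.68, 0.0312) and Pacsin2 (-0.54, 0.0451) fell, and Ccr1 (1.46, 0.000573), Siglecf (1.01, 0.0465) and Irf4 rose. The calls of Rpgrip1, Pacsin2, Siglecf, Irf4 and Ly6e were lost in 6 to 10 of the 12 fits without 1 library, and those of Batf3, Zbtb46 and Siglece in 1 to 3.

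Markers of other cells were read beside these results. Of 9 CD8+ T cell genes, all were present, with sums of 10064 to 11979 CPM in anti-PD-1 asGM1-positive, 11039 to 12896 CPM in anti-PD-1 asGM1-negative, 12568 to 14228 CPM in isotype asGM1-positive and 11817 to 12524 CPM in isotype asGM1-negative libraries. Cd8a was at 1590 to 2581 CPM in every library, so the labelled cell type carried its markers throughout. B cell genes were scarce: Ms4a1 was at 0 in all 12 libraries, and the sum over 10 genes was 1.44 to 2.92 and 2.99 to 4.71 CPM in asGM1-positive libraries under anti-PD-1 and isotype, against 3.34 to 7.62 and 8.03 to 9.40 CPM in asGM1-negative libraries under the same treatments. Rag1 and Rag2, which mark lymphocyte progenitors, were at 0 throughout. Dntt, the polymerase TdT of progenitors, was at 0 in all 6 asGM1-positive libraries and at 1.29 to 3.41 CPM in the asGM1-negative ones, and Mzb1, a chaperone of plasma cells and pDCs, at 0 to 0.125 CPM in asGM1-positive and 0.841 to 4.37 CPM in asGM1-negative libraries. Vpreb3 of the progenitor list went the other way under isotype, at 0.214 to 0.347 CPM in asGM1-positive and 0 to 0.132 CPM in asGM1-negative libraries. The sums over 5 plasma cell genes overlapped between the populations. They were 9.08 to 14.8 CPM in asGM1-positive and 5.90 to 16.0 CPM in asGM1-negative libraries under anti-PD-1. Under isotype they were 8.34 to 22.7 and 8.22 to 14.5 CPM.

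Of 4 CD4+ and regulatory T cell genes, 2 fell under anti-PD-1 and 1 under isotype in asGM1-positive cells. They summed to 21.4 to 36.3 CPM in asGM1-positive and 57.1 to 119 CPM in asGM1-negative libraries. The 9 genes of type 1 conventional dendritic cells gave 39.6 to 79.6 CPM in asGM1-positive and 50.6 to 87.6 CPM in asGM1-negative libraries, with 1 of the 9 lower in each treatment and sums that overlapped under anti-PD-1 but not under isotype. The 6 genes of type 2 or migratory ones gave 4.35 to 11.2 CPM in asGM1-positive and 8.82 to 29.1 CPM in asGM1-negative libraries, with 1 lower under anti-PD-1 and 0 under isotype. Clec9a, which marks the first of these, was at 0 to 0.153 CPM in asGM1-positive and 0.337 to 1.63 CPM in asGM1-negative libraries. Cadm1 and Naaa of the same list went the other way under isotype and overlapped under anti-PD-1, with no call. Under isotype Cadm1 was at 2.31 to 6.17 CPM in asGM1-positive and 1.03 to 1.41 CPM in asGM1-negative libraries, and Naaa at 9.47 to 11.6 and 6.88 to 8.78 CPM. Batf3 of that list went the other way under anti-PD-1 and overlapped under isotype, again with no call. Under anti-PD-1 it was at 0.646 to 0.762 CPM in asGM1-positive and 0.551 to 0.562 CPM in asGM1-negative libraries. Macrophage genes ran the other way, at 180 to 313 CPM in asGM1-positive and 71.1 to 115 CPM in asGM1-negative libraries over 10 genes, of which 7 rose in each treatment. The natural killer cell sum was 33.8 to 68.7 CPM in asGM1-positive and 29.4 to 63.4 CPM in asGM1-negative libraries under anti-PD-1, and 240 to 337 CPM in asGM1-positive and 63.8 to 128 CPM in asGM1-negative libraries under isotype, and 0 of its 4 tested genes passed by edgeR. The part of these other cells in the pDC gene differences was not tested. Under anti-PD-1 in asGM1-negative cells, the lymphoid progenitor sum was 1.62 to 3.61 CPM, against 1.57 to 3.43 CPM under isotype, and the macrophage sum 75.7 to 115 CPM, against 71.1 to 82.8 CPM, while the natural killer cell sum was 29.4 to 63.4 CPM, against 63.8 to 128 CPM, and the neutrophil sum 0.321 to 0.588 CPM, against 3.40 to 3.88 CPM.

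**Figure D5:**
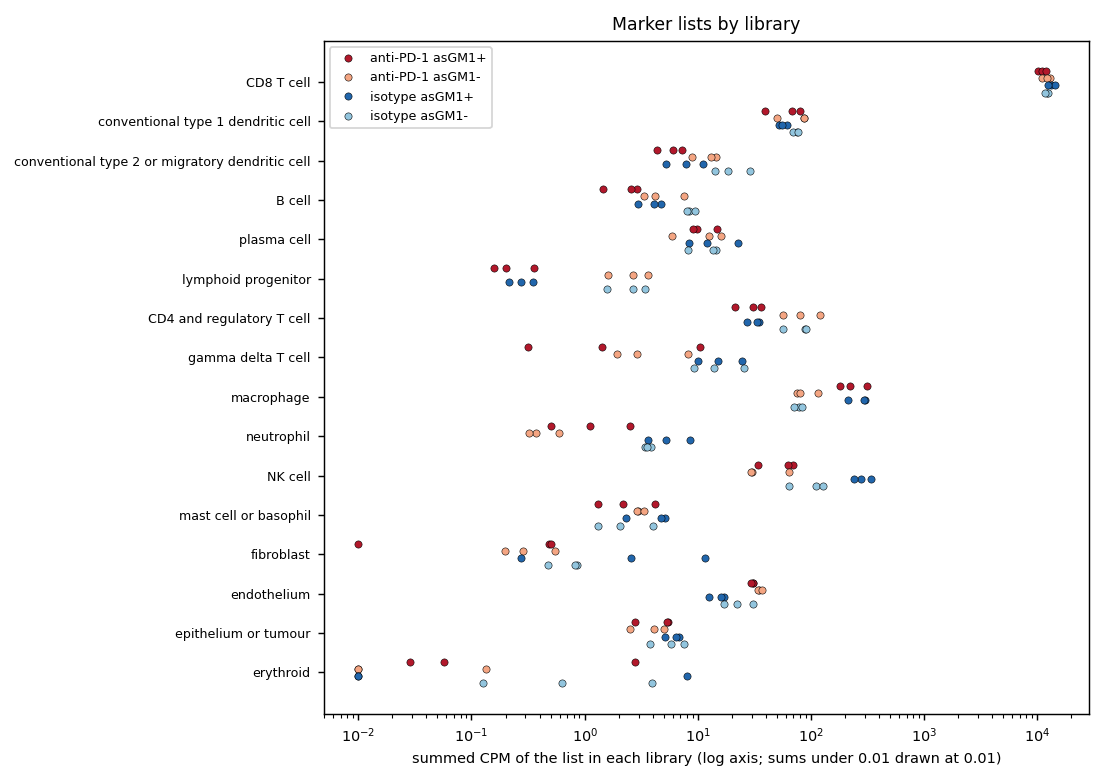
Summed CPM of each marker list (rows) in each library (points, log axis), coloured by group. The CD8+ T cell sum is at least 10064 CPM in every library, and the lymphoid progenitor sum is 0.157 to 0.360 CPM in asGM1-positive and 1.57 to 3.61 CPM in asGM1-negative libraries.

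The genes most like the 8 were found by the correlation of log2 CPM with the mean standardised log2 CPM of the 8 over the 12 libraries, which fall into 2 clusters by population. The first 10 of 13391 genes ranked, predicted genes and receptor variable segments left out, were Cd300c, Havcr1, Chdh, Iglc3, Sh3bgr, Kmo, Lad1, Lefty1, Gprc5c and Hs3st1, with Pearson's r of 0.944 to 0.959. Of these, 5 are in the list of pDC surface and secretory genes. That list was drawn up with results of these data known, and the 8 were chosen on the population difference, so nothing is read from that count. Cd300c, Havcr1, Chdh, Sh3bgr, Gprc5c and Hs3st1 had no read in any asGM1-positive library. They passed the filter only through the asGM1-negative side. Iglc3, a constant region of the immunoglobulin lambda chain, had 0, 0 and 0 CPM in asGM1-positive libraries under anti-PD-1, against 3.48, 5.14 and 2.86 CPM in asGM1-negative libraries. Under isotype it had 0, 0 and 0.0458 CPM in asGM1-positive libraries, against 14.3, 6.47 and 6.81 CPM in asGM1-negative libraries. Lad1 was at 1.60 to 3.72 and 0.902 to 3.71 CPM in asGM1-positive libraries under anti-PD-1 and isotype, against 8.03 to 14.6 and 14.7 to 22.9 CPM in asGM1-negative libraries under the same treatments. Among the 8 themselves, Siglech had the highest correlation with the mean of the other 7 (r = 0.955) and Irf8 the lowest (r = -0.186), over the same 12 libraries.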

How the data were processed

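RNA of 12 sorted CD8+ T cell libraries (4 groups of 3) was sequenced after SMARTer ultra low input preparation, per the labels' protocols. The authors deposited raw counts per gene; HISAT2, StringTie and the mm39 build come from the submitters' processing notes, and how counts were tallied is not given in the sources used here. Genes passing edgeR's filterByExpr by group were fitted in edgeR 4.0.16 (R 4.3.3; TMM, robust quasi-likelihood F test, all 12 libraries, Benjamini-Hochberg over all genes tested, threshold 0.05). CPM used TMM-scaled totals. DESeq2 1.42.0 and limma 3.58.1 voom were alternatives. The procedure was tested on simulated counts of independent libraries, with less spread than these data and with changes only in well-covered genes. Same-numbered libraries of a treatment deviated together (correlations of 0.121 to 0.298 over 6 pairs), so numbers pair the populations within a treatment. Members and gene lists were chosen with earlier results of these data known. Named are the 8 genes, up to 4 genes of each list by smallest p in each population comparison, listed genes that passed a treatment comparison, and the 10 most similar genes; further genes named were chosen after their values were seen. With no molecular identifiers, intervals cover counting error only. Some listed genes that entered the counts are not reported here by name.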

Additional observations from a re-analysis of the deposited data

How the results depend on the processing

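Of 63 genes tested over the 4 pDC lists, 17 fell in asGM1-positive cells under anti-PD-1 and 21 under isotype. Of all genes, 0.654% and 0.938% fell in these comparisons. The lists also hold Id3 and Zbtb46, which are not markers of pDCs alone. Under isotype the count was 32 with DESeq2, where 2.71% of all genes fell, and 10 with the compared libraries alone, where 0.372% did, and under anti-PD-1 it was 3 without both anti-PD-1 replicate 2 libraries, which was tried after the data had been seen and in which 0.0666% of all genes fell. Leaving out 1 library at a time gave 9 to 20 in either treatment, where 0.209% to 0.780% of all genes fell under anti-PD-1 and 0.334% to 0.869% under isotype. With the replicate block, which pairs the populations within a treatment, the counts were 21 under anti-PD-1 and 30 under isotype. The share of all genes that fell rose as well, to 2.13% and 2.12%. Of the 8 genes, 1 fell under anti-PD-1 in asGM1-negative cells (4.55% of all genes). The count was 2 by DESeq2 (9.65%), 4 by limma voom (4.66%) and 4 with the compared libraries alone (4.55%). Without both anti-PD-1 replicate 2 libraries 0 fell (2.19% of all genes), and without 1 library 0 to 2 did (2.03% to 4.79%). In asGM1-positive cells the count of 0 became 0 to 1 without 1 library. In those fits 1.41% to 2.84% of all genes fell and 1.95% to 3.75% rose. The interaction had 0 in every alternative run. Across treatments, same-numbered libraries did not deviate together (correlations of -0.107 to 0.0129), and the block kept 1 and 0 calls among the 8 in asGM1-negative and asGM1-positive cells. DESeq2's size factors or no filter on low counts left these counts at 21, 17, 1 and 0. No value changed its sign past the threshold in any alternative. The causes were not tested. Genes with few reads in asGM1-positive cells have fitted fold changes that depend on the prior count.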
